A study of Mus musculus with 7 samples.

Results

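The genes that copy DNA were followed in prospermatogonia, the male germ cells of the fetal testis, from fetuses with and without an RNA terminator in front of the *H19/Igf2* imprinting control region (ICR). The set held 45 genes for origin recognition and licensing, the replicative helicase, the polymerases, the sliding clamp and its loader, nucleotide supply and the joining of Okazaki fragments. Its members were taken by symbol from a deposited table of 20643 genes, and 45 of 45 had a row. No measured value entered that rule, but the set was chosen with earlier results of these data known. Total RNA-seq gave 7 libraries of EGFP+ cells sorted from 15.5 dpc fetal testes (the labels' source name gives 15 dpc). There were 2 WT libraries, 2 from H19Ter/H19Ter fetuses (written H19Ter for their libraries) and 3 from H19Ter+neo/H19Ter+neo fetuses (written H19Ter+neo). Both mutants were homozygous for the terminator cassette, and the H19Ter+neo allele also kept the Pgkneo selection cassette, which Hprt-Cre had removed from H19Ter. All the fetuses carried a *Pou5f1* promoter-driven EGFP transgene (TgOG2), so the sort rested on that promoter. The mutant lines were made in 129S1 mice from chimeras of a single ES cell line and were crossed with the B6;CBA transgenic line. The strain of the WT fetuses was not found in the sources read. Differences from WT may therefore include strain background as well as the inserted cassette, and the share of each was not tested. Testes were pooled for digestion, and no source used here names the litter behind each library, so the p-values measure the spread between these libraries.

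DNA replication starts where the origin recognition complex (ORC) loads the MCM helicase onto DNA with the help of CDC6 and CDT1, a step called licensing that geminin blocks outside its proper window. CDC45 and the GINS proteins switch the loaded helicase on, primase and polymerase alpha lay down primers, and polymerases delta and epsilon extend them behind the PCNA clamp. Mouse prospermatogonia leave the cell cycle in the fetal testis and stay arrested until after birth, and many of these genes are known targets of E2F transcription factors in dividing cells.

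Sequence at the start sites was examined first, because E2F sites are a feature that many replication genes share. RefSeq promoters (GRCm38.p6, 250 bases before to 50 after a start) were found for 37 of the 45 genes, which have 45 promoters among them. *Gins1*, *Gins2*, *Gins4*, *Gmnn*, *Mcm4*, *Pole*, *Prim2* and *Rfc2* had no entry. An E2F spelling (TTTGGCGC, TTTCCCGC or TTTCGCGC, on either strand) stood in 15 of the 45 promoters (33.3%), against 1.84% of all 32851 promoters and 3.19% of the 15981 promoters of genes in the table. The CCAAT box, bound by NF-Y, stood in 55.6% of the members' promoters, in 37.4% of all promoters and in 38% of those of genes in the table. The CHR letters TTTGAA stood in 11.1%, 17.9% and 12.7%, so the members' share was near that of genes in the table. The following windows, from 170 bases before to 30 after the start and read 5′ to 3′ on the strand of the gene, show 4 genes with an E2F spelling (capitals) and *Mcm2*, which moved in both mutants and has none. In *Mcm5* and *Mcm6* spellings on opposite strands overlap.
Mcm5, chr8:75109339-75109538, forward strand: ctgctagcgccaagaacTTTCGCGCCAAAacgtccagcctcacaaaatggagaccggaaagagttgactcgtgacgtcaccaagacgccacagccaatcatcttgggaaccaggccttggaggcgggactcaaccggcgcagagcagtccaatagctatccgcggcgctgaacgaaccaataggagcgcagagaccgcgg
Mcm6, chr1:128359676-128359875, reverse strand: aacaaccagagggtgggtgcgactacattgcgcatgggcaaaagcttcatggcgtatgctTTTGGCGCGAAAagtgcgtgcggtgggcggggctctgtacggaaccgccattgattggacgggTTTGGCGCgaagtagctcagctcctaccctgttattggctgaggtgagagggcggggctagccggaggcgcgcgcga
Mcm7, chr5:138171854-138172053, reverse strand: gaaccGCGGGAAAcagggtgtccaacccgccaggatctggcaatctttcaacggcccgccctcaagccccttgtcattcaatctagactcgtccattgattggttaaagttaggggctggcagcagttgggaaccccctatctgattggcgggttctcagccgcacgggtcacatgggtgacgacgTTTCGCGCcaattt
Rfc3, chr5:151651179-151651378, reverse strand: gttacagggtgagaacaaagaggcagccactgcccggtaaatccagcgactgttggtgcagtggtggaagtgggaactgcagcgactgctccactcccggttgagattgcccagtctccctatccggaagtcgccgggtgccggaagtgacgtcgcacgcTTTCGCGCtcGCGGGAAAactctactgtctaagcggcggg
Mcm2, chr6:88898751-88898950, reverse strand: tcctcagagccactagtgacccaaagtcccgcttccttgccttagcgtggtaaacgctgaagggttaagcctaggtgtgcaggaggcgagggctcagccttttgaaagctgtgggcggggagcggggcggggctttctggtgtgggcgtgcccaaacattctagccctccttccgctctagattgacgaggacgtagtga
*Mcm5*, *Mcm6* and *Mcm7* encode helicase subunits, as *Mcm2* does, and *Rfc3* encodes a subunit of the clamp loader. In the *Rfc3* window both spellings stand close to the start. A match of letters is a description of the window and not a measured binding site.

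The members were well covered in these cells. Their median level over the 7 libraries was 5.71 on the log2 CPM scale (counts per M read pairs), against 2.83 for all genes, and 42 of 45 lay above that all-gene median. The lowest number of read pairs behind a member in any library was 74. Depth was 45.1 and 45.9 M read pairs for the WT libraries, 51.2 and 37.5 M for H19Ter and 84.1 to 87.3 M for H19Ter+neo. Germ cell markers stood at high levels and most markers of other testis cells at low ones. *Ddx4*, a germ cell RNA helicase, ranged from 602 to 772 CPM, while *Amh*, the Sertoli cell hormone, ranged from 1.56 to 4.2 CPM. *Cyp17a1*, a Leydig cell enzyme, ranged from 0.649 to 10.4 CPM. Leydig and interstitial markers were highest in H19Ter replicate 3 and H19Ter+neo replicate 5. The sum over 5 of 6 Leydig genes was 26.7 and 29.6 CPM in these libraries and 5.55 to 16.1 CPM in the other 5. The sum over 8 interstitial and peritubular genes was 102 and 71.2 CPM there and 44.4 to 56.7 CPM in the other 5. The defining Leydig gene *Insl3* had no row. Results were therefore also computed without each of these libraries.

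Some markers themselves passed the test against WT. Of 10 germ cell markers 2 rose and 4 fell in H19Ter, and 4 rose and 3 fell in H19Ter+neo. Among all genes 14.1% rose and 11% fell in H19Ter, and 27.7% rose and 26.7% fell in H19Ter+neo. *Pou5f1*, whose promoter drove the EGFP used for the sort, had 257 and 272 CPM in WT, 249 and 250 CPM in H19Ter, and 171, 185 and 148 CPM in H19Ter+neo (-0.66 in the latter, limma adjusted p = 0.000143). *Nanos2*, a regulator of male germ cell fate, fell in both (-0.51 and -1.12, limma adjusted p = 0.0481 and 0.000209). *Dnmt3l* rose in both mutants (1.20 and 1.21, limma adjusted p = 0.00033 and 2.33e-05). *Tdrd9* did so too (0.55 and 0.66, limma adjusted p = 0.00387 and 0.000166), so the germ cell markers moved both ways. Markers of other cells were low but partly higher. *Pdgfrb*, of mural and interstitial cells, had 3.42 and 2.99 CPM in WT and 9.18 to 13.9 CPM in the mutants. The Sertoli factor *Sox9* had 2.64 and 2.92 CPM in WT and 4.28 to 7.48 CPM in the mutants, and both genes passed in each mutant. Of 8 interstitial and peritubular markers *Pdgfrb* alone passed in H19Ter. In H19Ter+neo 2 of them rose and *Col1a1* fell (-0.64, limma adjusted p = 0.0463), and the median of the list was -0.16. Other Sertoli genes, *Amh* (-0.92) and *Wt1* (-0.78), fell in H19Ter+neo (limma adjusted p = 0.0159 and 0.0121). Of 5 endothelial markers 1 rose in H19Ter and 4 rose in H19Ter+neo, where their sum was 22.5 to 27 CPM beside 18.5 and 17.8 CPM in WT. The 2 macrophage markers with a value, of 5 listed, and *Alas2*, the 1 erythroid marker with a value, rose in H19Ter+neo, at sums of 1.73 to 2.35 and 4.34 to 5.82 CPM beside 0.826 and 0.449 CPM and 2.75 and 1.66 CPM in WT. The part of these markers' cells in the values of the replication genes was not tested.

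Per kb of exon, the helicase subunits stood close together in WT. *Mcm7* was highest at 47.5 ± 0.302 CPM per kb (SD, n = 2), followed by *Mcm6* at 41.7 ± 2.48, *Mcm3* at 35.9 ± 0.734, *Mcm4* at 30.7 ± 2.04, *Mcm5* at 26.6 ± 0.423 and *Mcm2* at 18.7 ± 1.07. These 6 genes, whose products form 1 ring, spanned 2.54-fold, and no neighbours in this order overlapped within 1 SD. The origin genes spread more widely, 15.1-fold, from *Orc2* at 25.1 ± 1.59 CPM per kb to *Cdc6*, the ATPase that helps ORC load the helicase, at 1.66 ± 0.226. *Orc3* (21.7 ± 1.66) and *Orc4* (19.3 ± 1.05) did not separate beyond their spread. *Gins4* stood at 36.5 ± 3.26 CPM per kb and *Gins2* at 0.497 ± 0.0521. Exons of the opposite strand cover 67.3% of the *Gins2* exon bases, and they belong to *Gse1*. The lengths are those of all annotated exons merged, so a gene with a rarely used long exon is set too low on this scale. Thymidine kinase, *Tk1*, was the second lowest at 0.813 ± 0.171 CPM per kb. Its merged exons hold 5198 bases, while its longest transcript has 1440. For *Mcm2* these lengths are 6956 and 3371 bases. The low places of *Tk1* and *Mcm2* thus depend on the length used.

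**Figure D1:**
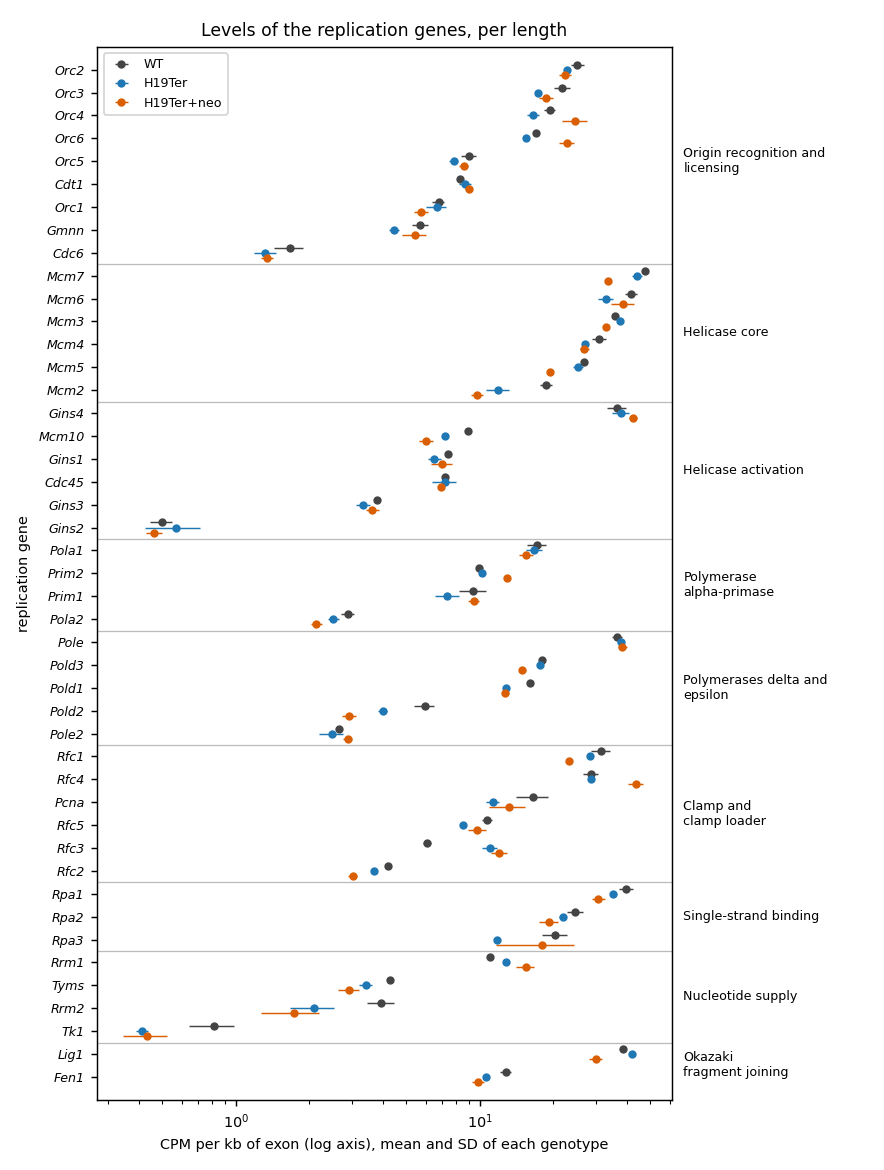
Level of each replication gene per kb of merged exon (horizontal log axis, CPM per kb) with genes grouped by role on the vertical axis. Points are genotype means and bars are SDs (2 WT, 2 H19Ter and 3 H19Ter+neo libraries). The 6 helicase subunits lie within 2.54-fold in WT, while the origin genes span 15.1-fold.

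The first comparison asked how the replication genes stood in H19Ter prospermatogonia. They were mostly lower than in WT. *Mcm2*, the ribonucleotide reductase subunit *Rrm2*, *Tk1*, *Tyms*, *Pcna*, *Pold1*, *Pold2* and *Rpa3* were among 13 members that fell, and *Rfc3* was the single member that rose. Of the 45 members 28.9% fell and 2.22% rose, a total of 31.1%. In this limma fit 25.1% of all genes passed an adjusted p under 0.05, 11% lower and 14.1% higher. The members' median log2 fold change was -0.18, with a range from -0.95 to 0.86, and that of all genes was -0.01. The values of both mutant libraries lay below both WT libraries for 30 members and above for 6, where 67.5% of all genes did not overlap (35% lower, 32.4% higher). With the same total of read pairs per library in place of the deposited scaling, 8 members fell and 2 rose, and the share of all calls that were higher went from 56.2% to 72.5%.

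The calls of this comparison rested on few libraries. *Mcm2* and *Rfc3* passed whichever library was left out, and the other 12 did not. Leaving out a WT or H19Ter library left the other library of its group alone. In each of these fits fewer members passed, and so did fewer of all genes, so the drop was not particular to the members. This held without H19Ter replicate 3 too, 1 of the libraries with more Leydig and interstitial signal. No called member changed direction with a library left out.

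The second comparison, of H19Ter+neo with WT, gave a wider split. The helicase genes *Mcm2*, *Mcm4*, *Mcm5* and *Mcm7*, the loader genes *Rfc1* and *Rfc2*, *Rpa1*, *Rpa2*, *Fen1* and *Lig1* were among 19 members that fell. *Rfc3*, *Rfc4*, *Orc4*, *Orc6*, *Prim2*, *Gins4* and *Rrm1*, the large subunit of ribonucleotide reductase, rose. Together 57.8% of the members passed, close to the 54.4% of all genes that passed in this limma fit. By direction 42.2% fell (26.7% of all genes) and 15.6% rose (27.7% of all genes). The median log2 fold change was -0.20, with a range from -1.21 to 0.99, beside 0.01 for all genes. The libraries did not overlap for 24 members that were lower and 9 that were higher, against 71.8% of all genes in either direction (35.2% lower, 36.6% higher). Of the 26 calls, those of *Orc3*, *Orc4*, *Mcm4*, *Gins4*, *Pold3*, *Rpa2* and *Tk1* were lost in 1 or more fits that left out a library. The others held whichever library was left out. Without H19Ter+neo replicate 5, *Gins4* was no longer called, and *Orc1*, *Orc2*, *Pcna* and *Rpa3* were.

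Both mutants were set against the same 2 WT libraries, so a WT value that is off moves both comparisons. In both comparisons 9 of the 45 passed in the same direction, and 20.8% of all genes did so. They were *Rfc3* (higher) and *Mcm2*, *Mcm10*, *Orc3*, *Pold1*, *Pold2*, *Rrm2*, *Tk1* and *Tyms* (lower). A further 14 members passed in neither, as did 41.5% of all genes, namely *Orc1*, *Orc2*, *Orc5*, *Cdc6*, *Cdt1*, *Gmnn*, *Mcm3*, *Cdc45*, *Gins1*, *Gins2*, *Gins3*, *Pola1*, *Pole* and *Pole2*.

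**Figure D2:**
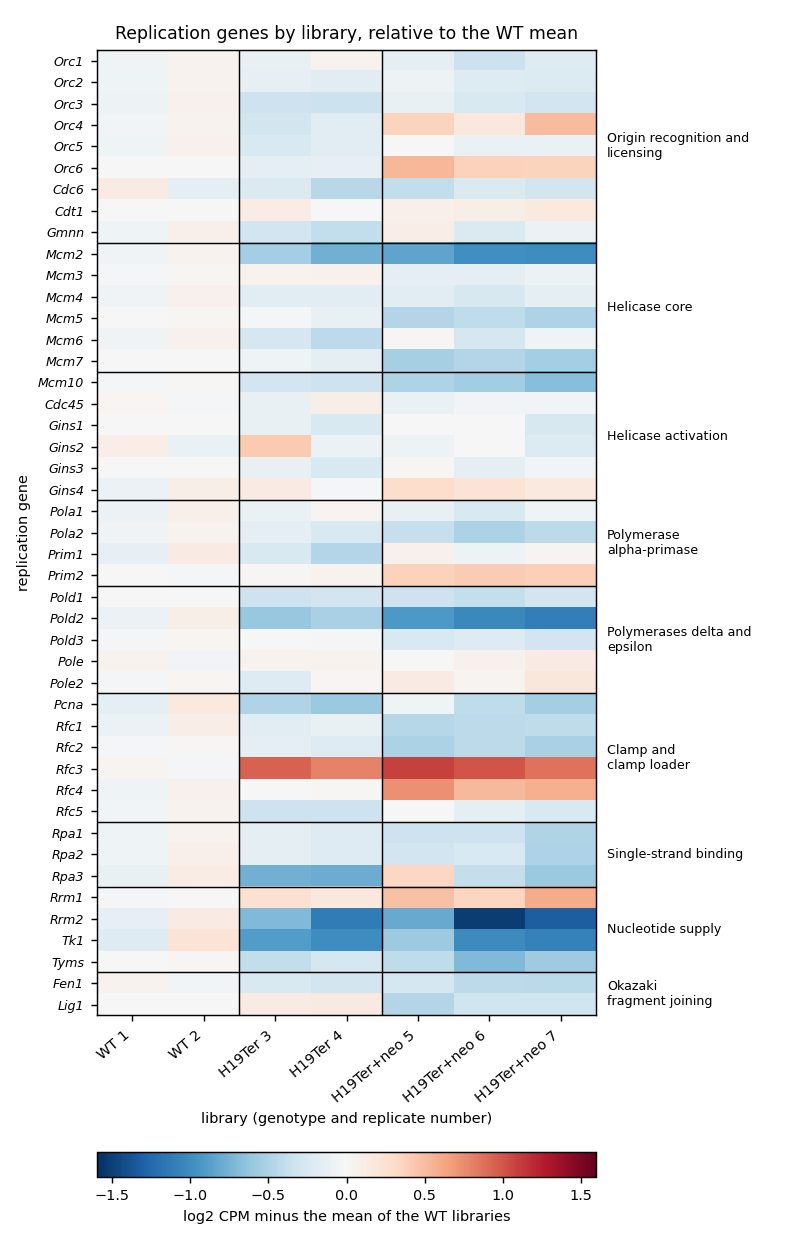
Log2 CPM of the 45 replication genes in each of the 7 libraries, drawn as the difference from the mean of the 2 WT libraries (blue lower, red higher) with genes grouped by role. *Mcm2*, *Pold2*, *Rrm2* and *Tk1* are blue in the 5 mutant libraries and *Rfc3* is red in them, while *Orc4*, *Orc6*, *Rfc4* and *Prim2* are red in the 3 H19Ter+neo libraries.

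**Figure D3:**
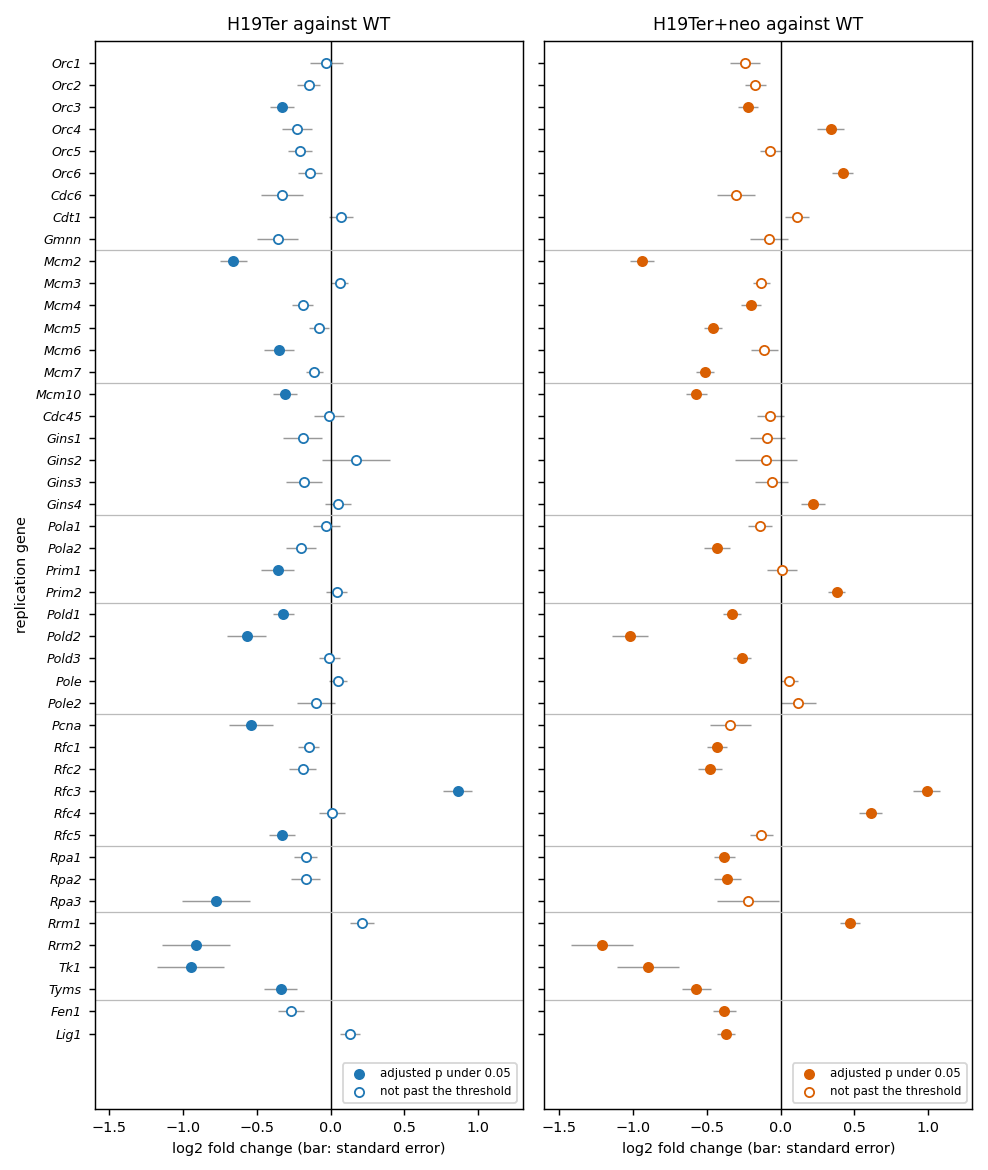
Log2 fold change of each replication gene against WT in H19Ter (left) and H19Ter+neo (right), with standard errors from limma as bars. Filled points are past an adjusted p of 0.05, 14 on the left and 26 on the right.

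Among the licensing genes, *Orc3*, a core ORC subunit, fell in both mutants. Its level was 125 and 140 CPM in WT, 105 and 105 CPM in H19Ter, and 122, 112 and 107 CPM in H19Ter+neo. The 5 mutant libraries lay below both WT libraries, with log2 fold changes of -0.33 (standard error 0.08, limma adjusted p = 0.0163) and -0.22 (standard error 0.07, limma adjusted p = 0.0277).

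*Orc4*, another core subunit (ENSMUSG00000026761, chr2:48902824-48950277 of GRCm38, reverse strand), rose with the neo allele. It had 139 and 150 CPM in WT, 118 and 128 CPM in H19Ter, and 185, 162 and 204 CPM in H19Ter+neo. The 3 genotypes did not overlap. The log2 fold change was 0.34 in H19Ter+neo (standard error 0.09, limma adjusted p = 0.00959) and -0.23 in H19Ter, where it missed the threshold (limma adjusted p = 0.115). The rise lost its call without WT replicate 1 and with trends on GC content and length removed.

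*Orc6*, the subunit least tied to the ORC core (ENSMUSG00000031697, chr8:85299632-85308278, forward strand), followed the same order. Its levels were 41.6 and 42 CPM in WT, 37.7 and 38.3 CPM in H19Ter, and 60.5, 54 and 53.8 CPM in H19Ter+neo. The genotypes again did not overlap, and the rise with the neo allele was 0.42 on the log2 scale (standard error 0.07, limma adjusted p = 0.000969).

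The remaining origin genes did not pass in either mutant with the values as deposited. With trends on GC content and length removed, *Orc2* and *Orc5* (lower) and *Cdt1* (higher) passed in H19Ter+neo against WT. *Cdc6* did so when thinned to the shallowest library. *Orc1* ranged from 18.6 to 24.6 CPM over the 7 libraries, *Orc2* from 83 to 101 CPM, *Orc5* from 46.8 to 58.3 CPM and *Cdc6* from 6.37 to 9.51 CPM. *Cdt1*, the loading factor, held between 26 and 29.2 CPM, and *Gmnn*, which encodes its inhibitor geminin, between 6.29 and 8.88 CPM. The log2 ratio of *Cdt1* to *Gmnn*, which does not depend on library scaling, was 1.64 ± 0.12 in WT (SD, n = 2), 2.06 ± 0.01 in H19Ter (SD, n = 2) and 1.83 ± 0.17 in H19Ter+neo (SD, n = 3). Both H19Ter libraries (2.07 and 2.06) lay above the other 5, which ranged from 1.56 to 1.96.

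In the helicase core *Mcm2* (ENSMUSG00000002870, chr6:88883474-88898780, reverse strand) moved most. It had 125 and 135 CPM in WT, 88.8 and 76.2 CPM in H19Ter, and 72.5, 65.8 and 65.1 CPM in H19Ter+neo. The 3 genotypes did not overlap and the neo libraries were lowest. The log2 fold change was -0.66 in H19Ter (standard error 0.09, limma adjusted p = 0.00143) and -0.94 in H19Ter+neo (standard error 0.08, limma adjusted p = 2.1e-05). Over all settings and libraries left out it stayed between -0.77 and -0.55 in the former and between -1.0 and -0.85 in the latter.

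The other ring subunits did not follow *Mcm2* evenly. *Mcm7* had 209 and 211 CPM in WT, 201 and 189 CPM in H19Ter, and 146, 152 and 145 CPM in H19Ter+neo. It fell with the neo allele (log2 fold change -0.51, limma adjusted p = 6.97e-05, standard error 0.06). Of its longest transcript 81.2% is at least 95% identical to other genes, mainly *Gm5487*, so its values are uncertain. *Mcm5* had 105 and 107 CPM in WT, 104 and 97.4 CPM in H19Ter, and 76.6, 79.6 and 75.5 CPM in H19Ter+neo. Like *Mcm7* it fell in the neo libraries (log2 fold change -0.46, limma adjusted p = 0.000196, standard error 0.06).

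*Mcm6* passed in the other mutant. It had 187 and 203 CPM in WT, 161 and 145 CPM in H19Ter, and 197, 159 and 184 CPM in H19Ter+neo, so the neo libraries overlapped WT. Its log2 fold change in H19Ter was -0.35 (standard error 0.10, limma adjusted p = 0.0285), and the difference between the mutants, 0.23, missed the threshold (limma adjusted p = 0.0776). *Mcm4* passed with the neo allele at -0.20, and *Mcm3* ranged from 121 to 141 CPM without passing in either mutant. The log2 ratio of *Mcm2* to *Mcm3*, chosen after the values were seen, was -0.09 and -0.01 in WT, -0.66 and -0.89 in H19Ter, and -0.75, -0.88 and -0.95 in H19Ter+neo.

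Of the genes that activate the helicase, *Mcm10*, which helps to start unwinding, fell in both mutants. Its levels were 68 and 69.8 CPM in WT, 55.8 and 54.9 CPM in H19Ter, and 49, 46.9 and 43 CPM in H19Ter+neo, with no overlap between genotypes. The log2 fold changes were -0.31 (standard error 0.08, limma adjusted p = 0.0193) and -0.57 (standard error 0.07, limma adjusted p = 0.000143). *Gins4* passed with the neo allele (0.22, limma adjusted p = 0.0433), at 59.5, 57.3 and 54.9 CPM against 46.1 and 52.3 CPM in WT, and lost its call in 5 of the 7 fits that left out 1 library. *Cdc45*, *Gins1*, *Gins2* and *Gins3* did not pass in either mutant, and *Gins3* ranged from 8.62 to 10.4 CPM.

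The subunits of polymerase alpha-primase moved apart with the neo allele. *Pola2*, the accessory subunit, had 22.8 and 24.9 CPM in WT, 21.6 and 20.1 CPM in H19Ter, and 18.5, 16.8 and 17.9 CPM in H19Ter+neo, and fell with the neo allele (-0.43, limma adjusted p = 0.00243). *Prim2*, the large primase subunit, had 59.4 and 58.2 CPM in WT, 59.6 and 61.2 CPM in H19Ter, and 76.2, 77.6 and 76.5 CPM in H19Ter+neo, where it rose (0.38, limma adjusted p = 0.000495). The neo libraries thus lay below the other 4 for *Pola2* and above them for *Prim2*.

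*Prim1*, the catalytic primase subunit, had 33.2 and 39.7 CPM in WT, 30.7 and 26.2 CPM in H19Ter, and 38, 34.4 and 37.2 CPM in H19Ter+neo. It was lower in H19Ter (-0.36, limma adjusted p = 0.0418), while the neo libraries lay within the WT range. *Pola1*, the catalytic polymerase subunit, passed in neither mutant with the values as deposited. It passed in H19Ter+neo, as lower, with trends on GC content and length removed.

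Of the 5 replicative polymerase genes in the set, *Pold1*, *Pold2* and *Pold3* of polymerase delta fell in 1 or both mutants, and *Pole* and *Pole2* of polymerase epsilon did not pass. *Pold2* (ENSMUSG00000020471, chr11:5872180-5878292, reverse strand), an accessory subunit of polymerase delta, had 10.5 and 12 CPM in WT, 7.34 and 7.79 CPM in H19Ter, and 5.91, 5.45 and 5.18 CPM in H19Ter+neo. The 3 genotypes did not overlap. Its log2 fold changes were -0.57 (standard error 0.13, limma adjusted p = 0.0135) and -1.02 (standard error 0.12, limma adjusted p = 8.98e-05).

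*Pold1*, the catalytic subunit of polymerase delta, had 77.3 and 78 CPM in WT, 61.6 and 62.5 CPM in H19Ter, and 61.6, 59.7 and 63.7 CPM in H19Ter+neo. The 5 mutant libraries lay below WT, with log2 fold changes of -0.32 and -0.33 (limma adjusted p = 0.00913 and 0.00138). The latter lost its call with trends on GC content and length removed. *Pold3* passed with the neo allele (-0.26, limma adjusted p = 0.00516). *Pole*, the catalytic subunit of polymerase epsilon, held between 396 and 445 CPM, and *Pole2* between 6.54 and 8.62 CPM. Small subunits outside the set differed from these, as *Pole4* fell in H19Ter (-0.37, limma adjusted p = 0.0174) and *Pold4* rose in H19Ter+neo (0.99, limma adjusted p = 0.0212). *Pold4* was near the floor, with 17 and 19 read pairs in WT and 86, 80 and 51 in H19Ter+neo.

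*Rfc3* (ENSMUSG00000033970, chr5:151642756-151651242, reverse strand) stood apart in the clamp loader. It had 22.5 and 21.3 CPM in WT, 41.9 and 37.8 CPM in H19Ter, and 46.5, 44.1 and 39.9 CPM in H19Ter+neo. All 5 mutant libraries lay well above WT and the mutants overlapped each other. The rise was 1.82-fold in H19Ter (log2 fold change 0.86, limma adjusted p = 0.00064, standard error 0.10) and 1.98-fold in H19Ter+neo (log2 fold change 0.99, limma adjusted p = 2.2e-05, standard error 0.09). No stretch of at least 100 bases of its longest transcript matched another gene at 95% identity.

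*Rfc4*, a partner of RFC3 in the loader (ENSMUSG00000022881, chr16:23113943-23127737, reverse strand), rose with the neo allele. It had 41.5 and 45.9 CPM in WT, 43.5 and 44.2 CPM in H19Ter, and 72.3, 62.8 and 65 CPM in H19Ter+neo. The H19Ter libraries lay within the WT range, and the rise in the neo libraries was 0.61 on the log2 scale (limma adjusted p = 0.000178, standard error 0.08). *Rfc1*, the large subunit, and *Rfc2* fell in the same libraries. *Rfc1* had 176 and 201 CPM in WT and 137, 140 and 141 CPM with the neo allele (-0.43, limma adjusted p = 0.000394). *Rfc2* passed at -0.48 (limma adjusted p = 0.000676), so subunits of 1 complex moved in opposite directions.

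*Pcna*, the clamp itself, had 35.4 and 43.8 CPM in WT, 28.3 and 26 CPM in H19Ter, and 37.4, 29.5 and 27 CPM in H19Ter+neo. The fall in H19Ter passed (-0.54, standard error 0.15, limma adjusted p = 0.0262). H19Ter+neo replicate 5 overlapped WT, and the neo comparison missed the threshold (limma adjusted p = 0.0532). Without replicate 5, with another scaling, or with trends on GC content and length removed, it passed. *Pcna-ps2* matches 51.4% of the *Pcna* transcript, so the *Pcna* values are uncertain. *Rfc5*, which fell in H19Ter (-0.33, limma adjusted p = 0.026), shares 59.2% of its transcript with other genes.

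The single-strand binding protein RPA has 3 subunits. *Rpa1*, the large subunit, had 211 and 231 CPM in WT, 201 and 192 CPM in H19Ter, and 177, 176 and 159 CPM in H19Ter+neo, with a fall in the last (-0.38, limma adjusted p = 0.00115). *Rpa2* fell alongside it (-0.36, limma adjusted p = 0.00591). *Rpa3*, the small subunit, had 21.1 and 25 CPM in WT, 13.4 and 13.2 CPM in H19Ter, and 28.7, 17.6 and 15.2 CPM in H19Ter+neo. It fell in H19Ter (-0.78, standard error 0.23, limma adjusted p = 0.0351). H19Ter+neo replicate 5, the library with 29.6 CPM of Leydig genes, was the highest of the 7. H19Ter replicate 3, with 26.7 CPM of Leydig genes, had 13.4 CPM of *Rpa3*. The part of other cells in these values was not tested.

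Nucleotide supply held the largest falls of the set. *Rrm2* (ENSMUSG00000020649, chr12:24708241-24714146, forward strand), the small subunit of ribonucleotide reductase that is made in S phase, had 9.96 and 11.9 CPM in WT, 6.67 and 4.98 CPM in H19Ter, and 6.23, 3.79 and 4.33 CPM in H19Ter+neo. All mutant libraries lay below WT and the mutants overlapped. The log2 fold changes were -0.91 (standard error 0.23, limma adjusted p = 0.0183) and -1.21 (standard error 0.21, limma adjusted p = 0.000835).

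*Rrm1*, its large partner (ENSMUSG00000030978, chr7:102441695-102469771, forward strand), did the opposite. It had 120 and 123 CPM in WT, 144 and 137 CPM in H19Ter, and 169, 155 and 183 CPM in H19Ter+neo, with no overlap between genotypes. The neo comparison passed (0.47, standard error 0.07, limma adjusted p = 0.000452), and the other did not (0.21, limma adjusted p = 0.0808). The log2 ratio of *Rrm2* to *Rrm1*, chosen after the values were seen, was -3.48 ± 0.16 in WT (SD, n = 2), -4.60 ± 0.25 in H19Ter (SD, n = 2) and -5.16 ± 0.35 in H19Ter+neo (SD, n = 3).

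*Tk1* (ENSMUSG00000025574, chr11:117815526-117826092, reverse strand), which salvages thymidine, had 3.6 and 4.85 CPM in WT, 2.24 and 2.06 CPM in H19Ter, and 2.78, 2.03 and 1.96 CPM in H19Ter+neo. The mutant libraries lay below both WT libraries. The log2 fold changes were -0.95 (standard error 0.23, limma adjusted p = 0.0154) and -0.90 (standard error 0.21, limma adjusted p = 0.00466). *Tyms*, which makes thymidylate, had 25.9 and 26.5 CPM in WT, 19.9 and 21.6 CPM in H19Ter, and 19.6, 16.1 and 17.6 CPM in H19Ter+neo, and it passed in both (-0.34 and -0.57, limma adjusted p = 0.0454 and 0.000916).

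**Figure D4:**
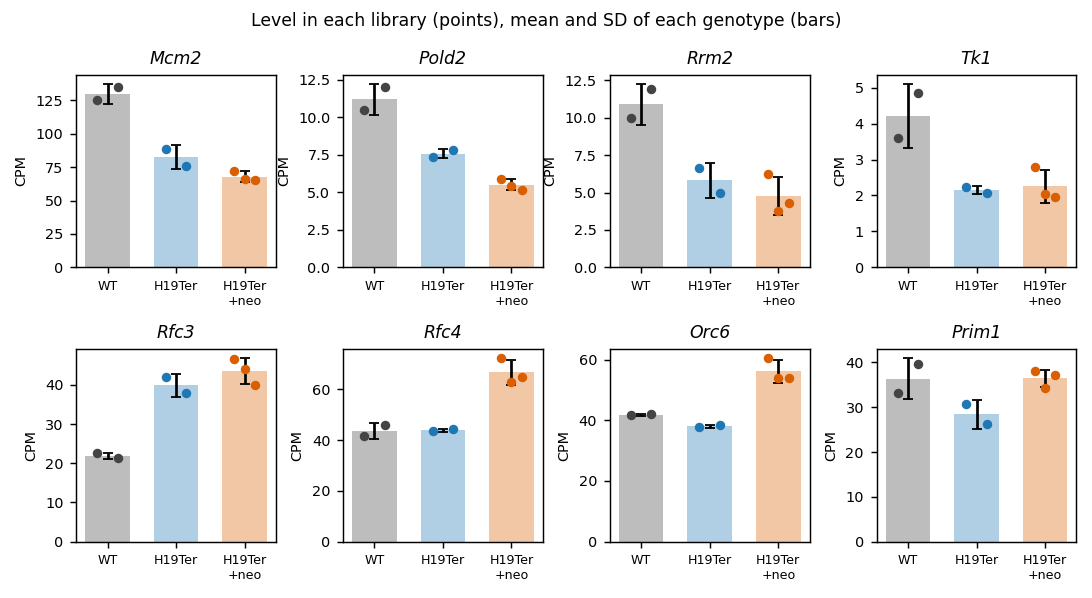
CPM of 8 replication genes in each library (points), with the mean of each genotype as a bar from 0 and the SD as an error bar. *Mcm2*, *Pold2*, *Rrm2* and *Tk1* are lower in both mutants, *Rfc3* is higher in both, *Rfc4* and *Orc6* are higher in H19Ter+neo, and *Prim1* is lower in H19Ter.

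The genes that finish the lagging strand fell with the neo allele. *Lig1* (ENSMUSG00000056394, chr7:13277283-13311433, forward strand), the ligase that joins Okazaki fragments, had 164 and 165 CPM in WT, 179 and 181 CPM in H19Ter, and 119, 131 and 131 CPM in H19Ter+neo. The genotypes did not overlap and H19Ter was highest. The neo comparison passed (-0.37, standard error 0.06, limma adjusted p = 0.000719) and the other did not (0.13, limma adjusted p = 0.188). *Fen1*, the flap endonuclease, passed with the neo allele as well (-0.38, limma adjusted p = 0.00335). Exons of *Gm10143* and *Tmem258* on the opposite strand cover 84.2% of its exon bases, and the strand setting of the counting was not found in the sources read.

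The third comparison set the mutants against each other and asked where the neo cassette went with a different level. With it, *Rfc4*, *Orc4*, *Orc6*, *Prim1*, *Prim2* and *Rrm1* were higher than in H19Ter, and *Lig1*, *Pold2*, *Mcm7*, *Mcm5*, *Rfc2*, *Rfc1*, *Mcm2*, *Mcm10*, *Pold3*, *Rpa1* and *Mcm3* were lower. These 17 are 37.8% of the members (13.3% higher, 24.4% lower). Of all genes 27.7% passed in this limma fit (12.5% higher, 15.2% lower). The members' median was -0.01 and their range -0.50 to 0.60 in log2 difference, beside an all-gene median of 0.01. The libraries did not overlap for 13 higher and 15 lower members, where 56.3% of all genes did not overlap (28.2% higher, 28.1% lower). The largest differences were 0.60 for *Rfc4* (standard error 0.08, limma adjusted p = 0.000689), 0.58 for *Orc4* (standard error 0.09, limma adjusted p = 0.00169), 0.56 for *Orc6* (standard error 0.07, limma adjusted p = 0.000685) and -0.50 for *Lig1* (standard error 0.06, limma adjusted p = 0.000473). In the helicase core 4 of 6 subunits were lower and none was higher, at -0.40 for *Mcm7*, -0.38 for *Mcm5*, -0.28 for *Mcm2* and -0.19 for *Mcm3*. The H19Ter+neo libraries were also the deepest, at 84.1 to 87.3 M read pairs. Thinned to the shallowest library, 2373 genes were higher and 2892 lower between the mutants (2587 and 3130 before). Here and against WT, the neo allele cannot be told apart from other differences between these libraries.

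The difference between the mutants went with base composition. Over the 45 members Spearman's rho between GC content of the longest transcript and the log2 difference was -0.564, and over 20610 genes it was -0.282. In H19Ter+neo against WT the values were -0.425 and -0.139, and in H19Ter against WT they were 0.0505 and 0.0416. These describe genes of the same libraries and carry no p. The members had a median GC content of 47.9%, beside 48.6% for all genes, and ranged from 34.2% (*Rpa3*) to 61% (*Pold1*). With trends on GC content and length removed from each library, *Mcm2*, *Mcm3*, *Mcm10*, *Prim1*, *Pold2*, *Rfc2* and *Rpa1* lost their calls between the mutants and kept their direction. The log2 differences that remained were -0.16 for *Mcm2*, -0.10 for *Mcm3*, -0.20 for *Mcm10*, 0.28 for *Prim1*, -0.35 for *Pold2*, -0.20 for *Rfc2* and -0.15 for *Rpa1*, with limma adjusted p from 0.0533 (*Prim1*) to 0.221 (*Mcm3*). Calls were kept by *Rfc4* (0.44), *Orc6* (0.48), *Orc4* (0.39), *Lig1* (-0.37), *Mcm5* (-0.29) and *Mcm7* (-0.27), and by *Prim2* (0.28), *Rrm1* (0.22), *Rfc1* (-0.28) and *Pold3* (-0.21). Without H19Ter replicate 3 or 4, which left the other H19Ter library alone, fewer members and fewer of all genes were lower.

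**Figure D5:**
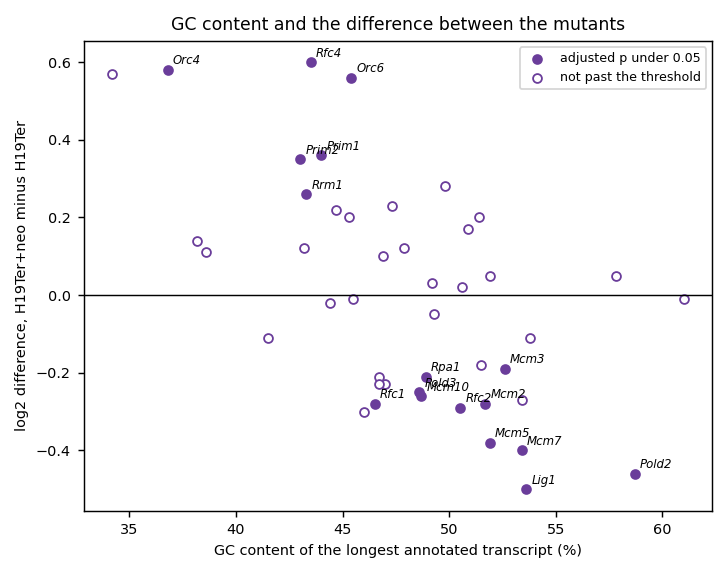
Log2 difference of each replication gene between H19Ter+neo and H19Ter (vertical axis) against the GC content of its longest transcript in percent (horizontal axis). Filled points are past an adjusted p of 0.05 in limma and are named. *Orc4*, *Rfc4*, *Orc6*, *Prim1*, *Prim2* and *Rrm1* lie at low GC content and above 0, and *Lig1* and *Pold2* at high GC content and below 0 (Spearman's rho -0.564, n = 45).

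Members with and without an E2F spelling were counted in each comparison. Of the 15 members with one, 3 fell and 1 rose in H19Ter, where 11% of all genes fell and 14.1% rose. In H19Ter+neo 6 of them fell and 1 rose, where 26.7% of all genes fell and 27.7% rose. Of the 22 members with a promoter entry and no spelling, 10 fell in H19Ter, and 11 fell and 4 rose in H19Ter+neo. The median log2 fold changes against WT were -0.08 and -0.22 with a spelling and -0.25 and -0.35 without. *Rfc3*, the member that rose in both mutants, holds spellings in its promoter, and so do *Orc3* and *Pold1*, which fell in both.

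Other genes of DNA replication, which are not in the set, were taken from a list of 44, and 44 had a row. In H19Ter 10 of them fell and none rose in limma, so 22.7% were called, all lower, beside 25.1% of all genes called and 11% lower. The count at an unadjusted p under 0.05 was 21 of 44 in either direction, beside 8085 of 20643. In H19Ter+neo 23 fell (52.3%) and 4 rose, so 61.4% were called, beside 54.4% of all genes called and 26.7% lower. Their medians were -0.19 and -0.22, near those of the members. *Chtf18*, a subunit of an alternative clamp loader, had 71.3 and 75.8 CPM in WT, 46 and 43.4 CPM in H19Ter, and 29, 27.7 and 24.1 CPM in H19Ter+neo, with no overlap. It passed at -0.72 (limma adjusted p = 0.00137) and -1.45 (limma adjusted p = 3.72e-06). *Dtymk*, thymidylate kinase, passed in both as well, at -0.60 and -1.01 (limma adjusted p = 0.00828 and 7.13e-05).

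The histone chaperone genes *Chaf1a* and *Chaf1b*, which load nucleosomes behind the fork, passed with the neo allele. *Chaf1a* had 36 and 37.9 CPM in WT, 33.7 and 33.6 CPM in H19Ter, and 22.8, 21.5 and 21.4 CPM in H19Ter+neo (-0.76, limma adjusted p = 3.8e-05). *Chaf1b* fell further (-1.18, limma adjusted p = 0.000107). *Ticrr*, which brings CDC45 to origins (-0.92, limma adjusted p = 6.13e-05), and *Mcm9* (-0.49, limma adjusted p = 0.000281) fell too. These 4 genes were also lower than in H19Ter. In that comparison 12 of the 44 were lower (27.3%) and 3 higher (6.82%), beside 15.2% of all genes lower and 12.5% higher.

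Of 18 genes that mark the state of the cell cycle, 9 passed in each comparison with WT (50%), beside 25.1% of all genes in H19Ter and 54.4% in H19Ter+neo. *Mki67*, a marker of dividing cells, had 202 and 264 CPM in WT, 128 and 97.7 CPM in H19Ter, and 97.9, 54.5 and 70.3 CPM in H19Ter+neo. All mutant libraries lay below WT, with log2 fold changes of -1.05 (limma adjusted p = 0.0102) and -1.68 (limma adjusted p = 0.000124). *Cdk1*, the mitotic kinase, fell in both (-0.52 and -0.64, limma adjusted p = 0.0339 and 0.00311), and *Ccne1*, a cyclin of S phase entry, fell with the neo allele (-1.20, limma adjusted p = 0.00557). *Cdkn1b*, which encodes p27, an inhibitor of the cycle, was lower in both (-0.57 and -0.60, limma adjusted p = 0.00388 and 0.000371). Over this list 8 fell (44.4%) and 1 rose in H19Ter, where 11% of all genes fell, and 9 fell (50%) and none rose in H19Ter+neo, where 26.7% fell. Genes that restrain the cycle are among them, so these counts give no direction of the cycle. Like *Cdkn1b*, *Cdkn1a* (-0.49) and *Rb1* (-0.32) fell in H19Ter, and *Cdkn1a* fell in H19Ter+neo (-0.95). The gene that rose in H19Ter was another inhibitor, *Cdkn1c* (0.35, limma adjusted p = 0.0356). *Cdk2*, *E2f7* and *Ccne2* passed in neither mutant. In sorted bulk cells a smaller share of cycling cells and less RNA per cell cannot be told apart, and the part of either in the replication gene values was not tested.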

How the data were processed

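Total RNA-seq of EGFP+ prospermatogonia was analysed in 7 libraries grouped by the genotype in the labels. Per the labels and the study's methods, the authors used Trim Galore 0.6.0 for trimming and STAR 2.7.8 for alignment to mm10 and gene counts. Per the submitters' notes deepTools and edgeR were also used. The deposited values are log2 CPM with a prior count of 2 reads scaled to each library. Undoing the log gave whole read pairs for 100% of values within 1e-06 of a read.

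The log2 values of 20643 genes were fitted as deposited with limma 3.58.1 (R 4.3.3), with genotype as the factor, moderation with a mean-variance trend, two-sided tests and Benjamini-Hochberg adjustment over all genes (threshold 0.05). Requiring 0.1 CPM in 2 or more libraries took out 0 genes. The fit was tested on simulated data. CPM per kb used merged exons of GENCODE vM21 (GRCm38). Matches between transcripts came from BLAST 2.17.0, and figures from matplotlib 3.10.9.

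The members and lists were chosen with earlier results of these data known. Named were the 8 largest changes per comparison among called members whose libraries did not overlap, the 3 smallest p in each role, all helicase core and licensing genes, and the 6 smallest p of the other replication genes. Some further members were named after their values were seen. Alternatives were other scalings, voom on the recovered reads, a pseudocount of 0.5, no filter or 1 CPM, the 2 groups alone, thinning to 37.5 M read pairs, trends on GC content and length removed, and each library left out.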

Additional observations from a re-analysis of the deposited data

Results flagged for a closer look

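*Orc4*, *Orc6*, *Mcm3*, *Prim1* and *Lig1* drew attention because the mutants lay on opposite sides of WT and differed from each other in limma. H19Ter+neo minus H19Ter was 0.58 for *Orc4* and 0.56 for *Orc6* on the log2 scale, with limma adjusted p = 0.00169 and 0.000685. *Prim1*, at 0.36, differed from WT in H19Ter by -0.36 and in the neo libraries by 0.01, so its second side is within error. *Lig1* differed by -0.50 (limma adjusted p = 0.000473). Against WT in H19Ter, *Orc4* (-0.23, standard error 0.10), *Orc6* (-0.14, standard error 0.08) and *Lig1* (0.13, standard error 0.07) missed the threshold. Their limma adjusted p were 0.115, 0.243 and 0.188. The H19Ter libraries did not overlap WT for these 3, as for 67.5% of all genes, so their H19Ter side was not settled. *Mcm3* differed by -0.19 (limma adjusted p = 0.0269), and neither of its comparisons with WT passed. The differences of *Mcm3* and *Prim1* lost their calls with trends on GC content and length removed, and those of *Orc4*, *Orc6* and *Lig1* did not.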

How the results depend on the processing

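No paired analysis was possible because the replicate numbers, 1 to 7, are not shared between genotypes. Having 2 WT and 2 H19Ter libraries limits precision. Thinning to the depth of the shallowest library left members lower and higher at 13 and 1 in H19Ter against WT. With 1 library left in a group the lone library is assumed to vary like the others. In H19Ter against WT, members lower (13) numbered 8 with the same total of read pairs per library, 7 with voom and 1 to 14 with 1 library left out, and members higher (1) numbered 2 with the same total, 2 with only these groups and 1 to 2 with 1 library left out. Of the 44 other replication genes 6 and 19 (10 before) were lower with the same total and with only these groups, and 1 to 14 with 1 library left out. The members' median (-0.18) was -0.10 with the same total, -0.13 with trends on GC content and length removed and -0.21 to -0.13 with 1 library left out. All genes higher (2914) numbered 1690 with voom and 1102 to 3116 with 1 library left out, and all genes lower (2273) numbered 1309 with the same total, 1402 with voom and 306 to 2754 with 1 library left out. *Mcm5* turned to 0.00 with the same total. In H19Ter+neo against WT, with 1 library left out, 14 to 23 members fell, 2 to 4 of the other replication genes rose, 12 to 26 fell, and the members' median was -0.23 to -0.13. Between the mutants 5 members were lower (11 before) with trends on GC content and length removed, and 3 to 12 with 1 library left out. The median was -0.08 with the same total, under which 32% of all calls were higher (45.3% before). With 1 library left out, 2 to 5 of the other replication genes were higher and 4 to 12 lower, and 994 to 2454 of all genes were higher and 1332 to 3090 lower. *Orc3* (-0.04) and *Orc5* (-0.02) turned with the trends removed. Causes were not tested. In settings that kept all libraries, 7 of 14, 23 of 26 and 9 of 17 members kept their call throughout, in the order of the comparisons above. No filter gave the same values, as the filter removed 0 genes.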
